A study of Mus musculus with 4 samples.

Results

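Transcripts of 10 genes of the interleukin-1 (IL-1) family were followed across the cell classes of the inflamed mouse colon. The genes were taken by symbol from the 32285 genes in the files and all 10 were found: the ligands Il1a, Il1b, Il18, Il1f9 and Il33, the antagonists Il1rn, Il18bp and Il1r2, and the receptor chains Il1r1 and Il1rap. IL-1α and IL-1β bind the signalling receptor IL-1R1, which recruits the accessory chain encoded by Il1rap and signals through Myd88 and the Irak kinases. Il1rn encodes a receptor antagonist that occupies IL-1R1 without signalling, and Il1r2 encodes a decoy receptor that takes up IL-1 and does not signal. IL-18 is held by the soluble binding protein from Il18bp. Il1f9 encodes IL-36γ and Il33 encodes a nuclear alarmin of barrier and stromal cells. In the gut, myeloid cells are the best known source of IL-1β, and stromal cells and subsets of T cells and innate lymphoid cells (ILCs) are known to respond to it.

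CD45+ leukocytes of the colonic lamina propria were enriched with magnetic beads. The C57BL/6 mice had drunk 2% dextran sulfate sodium (DSS), an agent that injures the colonic epithelium, over 7 days, with collection on day 8. Cells from 3 mice were mixed into each of the 4 samples. The study compared whole-body AhR-null mice (B6.129-Ahr tm1Bra/J) with wild-type littermates, but the labels state only the DSS treatment and an age of 10 weeks and give no genotype by sample. So the samples are called 1 to 4, each is described on its own, and no test between samples was made. All 4 received DSS, so no uninjured colon stands beside them.

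Samples 1 to 4 held 11425, 13730, 11581 and 8493 cells, with 72509408 to 135516016 unique molecular identifiers (UMIs, 1 for each captured transcript molecule). After filtering, 39550 cells were kept. A cell entered 1 of 15 classes when the markers of that class were present and those of unrelated classes were not. This placed 65.2% to 78.2% of a sample's cells. Another 15.8% to 25.4% carried markers of unrelated classes and were set aside as mixed, a class that can include doublets and cells with free RNA of others. The median cell held 7 or 8 of the 10 neutrophil markers in the neutrophil gate, and 7 of the 10 monocyte-macrophage markers in that gate. The largest gates held 8858 monocyte-macrophage cells, 5947 B cells, 5795 neutrophils and 4593 T cells. Despite the selection for CD45, 655 fibroblasts, 197 epithelial cells and 174 endothelial cells were found. The ILC3 gate held 20 cells in all and is described with that limit. A level below is a count of UMIs scaled to the UMI total of the class (CPM, counts per 1e6), summed over the cells of a class in 1 sample. Its 95% interval is an exact Poisson interval that covers counting error only, and classes were compared within each sample. CPM sets a gene against the other RNA of its class, so fewer transcripts of a gene and more of the rest cannot be told apart. UMI counts were not scaled by gene length, so levels were compared between classes and not between genes.

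**Figure D1:**
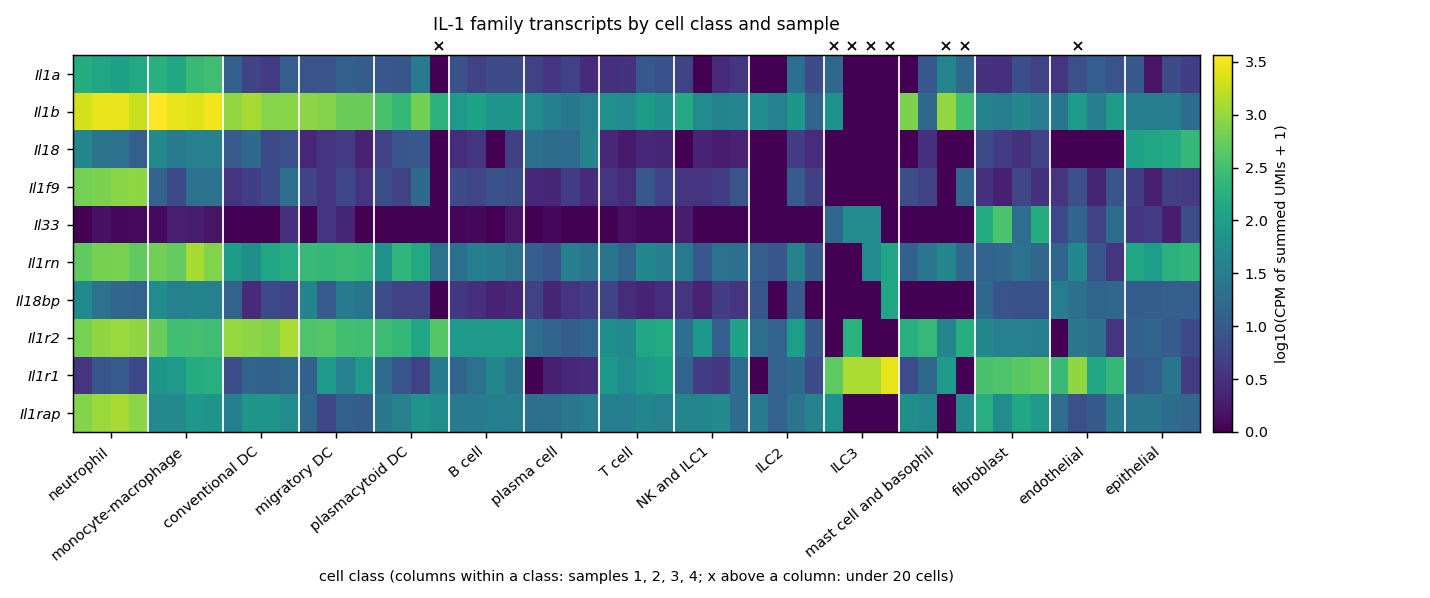
Levels of the 10 genes in 15 cell classes, as log10(CPM + 1) of summed UMIs, with a column for each of samples 1 to 4 within a class. Il1f9 and Il1rap were brightest in neutrophils in every sample, Il33 was brightest in fibroblasts except for the 2 ILC3 cells of sample 3, and a cross marks a column that rests on under 20 cells.

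The upstream sequences of 4 members are shown because the levels of these genes sorted by cell class: Il1a and Il1b were high in both myeloid classes, while Il1f9 and Il1rap were high in neutrophils. Each run holds the 250 bases before the annotated start, 5′ to 3′ on the strand of the gene, from RefSeq on GRCm38.p6. Il1a (chr2:129309973-129310222) and Il1b (chr2:129371140-129371389) lie on the minus strand, and Il1f9 (chr2:24186226-24186475) and Il1rap (chr16:26581455-26581704) on the plus strand. Capitals mark matches on either strand to TATAAA, to TGANTCA (the AP-1 motif) or to GCGTG (the core of the element that AhR binds).
Il1a: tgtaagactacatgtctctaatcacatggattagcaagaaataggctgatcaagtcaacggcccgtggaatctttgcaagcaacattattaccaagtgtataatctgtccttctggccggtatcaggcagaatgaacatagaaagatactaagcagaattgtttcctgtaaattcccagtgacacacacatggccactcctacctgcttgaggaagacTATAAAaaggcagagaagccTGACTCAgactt
Il1b: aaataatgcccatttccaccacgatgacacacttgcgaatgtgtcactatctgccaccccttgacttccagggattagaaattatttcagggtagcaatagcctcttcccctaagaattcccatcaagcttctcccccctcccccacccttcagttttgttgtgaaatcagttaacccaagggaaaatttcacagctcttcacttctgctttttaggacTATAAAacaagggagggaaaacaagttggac
Il1f9: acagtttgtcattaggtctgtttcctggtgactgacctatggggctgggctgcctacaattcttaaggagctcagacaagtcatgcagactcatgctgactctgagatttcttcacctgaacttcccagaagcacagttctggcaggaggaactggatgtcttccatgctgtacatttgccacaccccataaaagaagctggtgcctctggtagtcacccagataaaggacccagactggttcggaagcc
Il1rap: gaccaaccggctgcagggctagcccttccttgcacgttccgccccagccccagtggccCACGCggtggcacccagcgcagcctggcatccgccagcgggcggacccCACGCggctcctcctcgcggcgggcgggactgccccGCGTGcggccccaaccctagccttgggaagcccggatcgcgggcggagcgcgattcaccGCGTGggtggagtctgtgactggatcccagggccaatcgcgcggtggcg
TATAAA stood 32 bases before the start in Il1a and 31 bases before it in Il1b, and was found in 12.4% of all 32851 mouse promoters of this length. The AP-1 motif was matched in Il1a, and 6.75% of all promoters hold it. GCGTG was matched 4 times in Il1rap and not in the other 3 windows, and 28.2% of all promoters hold it at least 1 time. Among members not shown, Il1r2 held 2 matches to GCGTG, and 1 start site each of Il1rn and Il1r1 held 1. TATAAA also stood 175 bases before the start in Il18, and 203 and 29 bases before the 2 start sites of Il33. The AP-1 motif was also matched at 1 start site of Il1rn. The Il1f9 window held none of the 3 motifs. Searches for TTGCNNAA (C/EBP), GAGGAAGT (PU.1) and the NF-kB motif, which 9.56%, 2.44% and 3.9% of promoters hold, gave no match in these 4 windows. A match here is a string of letters and no binding was measured.

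Il1b, the gene for the main secreted IL-1 ligand of myeloid cells (chromosome 2 from 129364570 to 129371139, minus strand, GRCm38), was carried by both neutrophils and monocyte-macrophage cells. In samples 1 to 4 its level was 2073, 2692, 2674 and 1882 CPM in neutrophils. In monocyte-macrophage cells it was 3651, 2702, 2509.9 and 3023 CPM. The order of these classes was not the same in all samples. The monocyte-macrophage level was 1.76-fold the neutrophil level in sample 1 and 1.61-fold in sample 4. In sample 2 the ratio of neutrophil to monocyte-macrophage level was 0.996 (exact interval 0.968 to 1.03), and in sample 3 it was 1.07 (1.05 to 1.08). Conventional dendritic cells (DCs) followed at 834 to 1261 CPM and migratory DCs at 578 to 867 CPM. B cells, which are not a known source of Il1b, stood at 71.2 to 117 CPM, T cells at 51.7 to 87.2 CPM and fibroblasts at 30.04 to 42.9 CPM. In every sample these lymphoid and stromal levels lay far under those of neutrophils and monocyte-macrophage cells.

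The share of cells with an Il1b UMI was compared at a common depth, by drawing 1000 UMIs from each cell. At that depth 72.02% to 79.7% of neutrophils and 69.8% to 77.7% of monocyte-macrophage cells had an Il1b UMI, against 3.79% to 6.13% of B cells. Without thinning, the shares were 93.0% to 95.5%, 88.7% to 95.7% and 12.01% to 24.2%. The neutrophil gate had median depths of 2988 to 5980.5 UMIs per cell and the monocyte-macrophage gate 5733 to 8768. Il1b UMIs were thus spread over most cells of both classes. Cells were ranked by the share of Il1b in their own UMIs. The top 10% held 23.4% to 29.2% of the Il1b UMIs in neutrophils and 33.1% to 33.6% in monocyte-macrophage cells. Of all Il1b UMIs in a sample, monocyte-macrophage cells held 38.5% to 53.0%, neutrophils 8.95% to 19.7% and mixed cells 26.8% to 37.1%.

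Il1a, which encodes a ligand of the same receptor that is active as its precursor, was found in the same classes but in fewer cells. Its level in monocyte-macrophage cells was 179, 137, 263 and 296 CPM in samples 1 to 4. In neutrophils it was 157, 126, 102 and 141 CPM. The monocyte-macrophage level was the higher in all 4 samples, with intervals apart in samples 1, 3 and 4. B cells stood at 4.08 to 6.67 CPM. At 1000 UMIs, 9.37% to 18.8% of monocyte-macrophage cells had an Il1a UMI. The top 10% of all monocyte-macrophage cells, ranked by the share of Il1a in their UMIs, held 47.9% to 68.6% of the Il1a UMIs. This was a larger share than for Il1b in every sample, at a lower level of the gene. Conventional DCs carried Il1b with almost no Il1a (3.18 to 11.5 CPM).

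Il18, the ligand held by Il18bp and a product of intestinal epithelium, had its highest level in epithelial cells in all 4 samples, at 108, 124, 149.9 and 238 CPM. These values rest on 30, 84, 27 and 56 cells and 122 to 605 UMIs, and on the cells that came through a selection for CD45. Monocyte-macrophage cells were at 49.7, 28.7, 34.5 and 34.4 CPM and neutrophils at 41.2, 22.5, 20.6 and 10.9 CPM. Plasma cells were at 19.2, 17.4, 16.7 and 37.6 CPM, from 21 to 84 UMIs. No Il18 UMI was found in the 16 to 77 endothelial cells of a sample. The epithelial share of a sample's Il18 UMIs ranged from 5.13% in sample 1 to 33.1% in sample 4.

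Il1f9 (chromosome 2 from 24186476 to 24193568) was a neutrophil transcript in these samples, at 657, 729, 859.8 and 894 CPM. In monocyte-macrophage cells it was at 12.3, 5.25, 20.6 and 21.3 CPM and in B cells at 5.47, 4.47, 6.81 and 6.27 CPM. The neutrophil transcripts S100a8 and S100a9 were used as tracers of free RNA. At their share of the neutrophil level in the same class, Il1f9 would stand at 4.25, 2.06, 9.11 and 13.2 CPM in monocyte-macrophage cells. In B cells it would stand at 1.74, 2.30, 8.20 and 2.76 CPM. S100a8 differed between the subsets of the monocyte-macrophage gate, so there free RNA and the cells' own tracer transcripts cannot be told apart. The B cell level of sample 3 lay under its tracer value, while the other B cell levels and all monocyte-macrophage levels lay above theirs. The source of low Il1f9 levels outside neutrophils was not tested, and they are not read as expression. The neutrophil level was 53.4-, 139-, 41.8- and 42.0-fold the monocyte-macrophage level. Neutrophils held 45.8% to 66.8% of all Il1f9 UMIs and mixed cells 23.6% to 42.6%. At 1000 UMIs per cell, 42.8% to 49.97% of neutrophils had a UMI, and of monocyte-macrophage cells 0.532% to 1.94%.

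Il33 (chromosome 19 from 29925114 to 29960718) was a fibroblast transcript, with 158, 361, 17.8 and 161 CPM. Sample 3 held the most fibroblasts (344) and the lowest level. The fibroblast gate held 58.7% to 82.2% of a sample's Il33 UMIs, which numbered 54 to 336 in that gate. Only 17 to 37 fibroblasts per sample had an Il33 UMI. Endothelial cells stood at 3.93 to 17.4 CPM and epithelial cells at 0.943 to 5.90 CPM. Neutrophils had 0 to 2 Il33 UMIs per sample, and the exact interval of the 0 UMIs in sample 1 reaches 0.421 CPM.

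**Figure D2:**
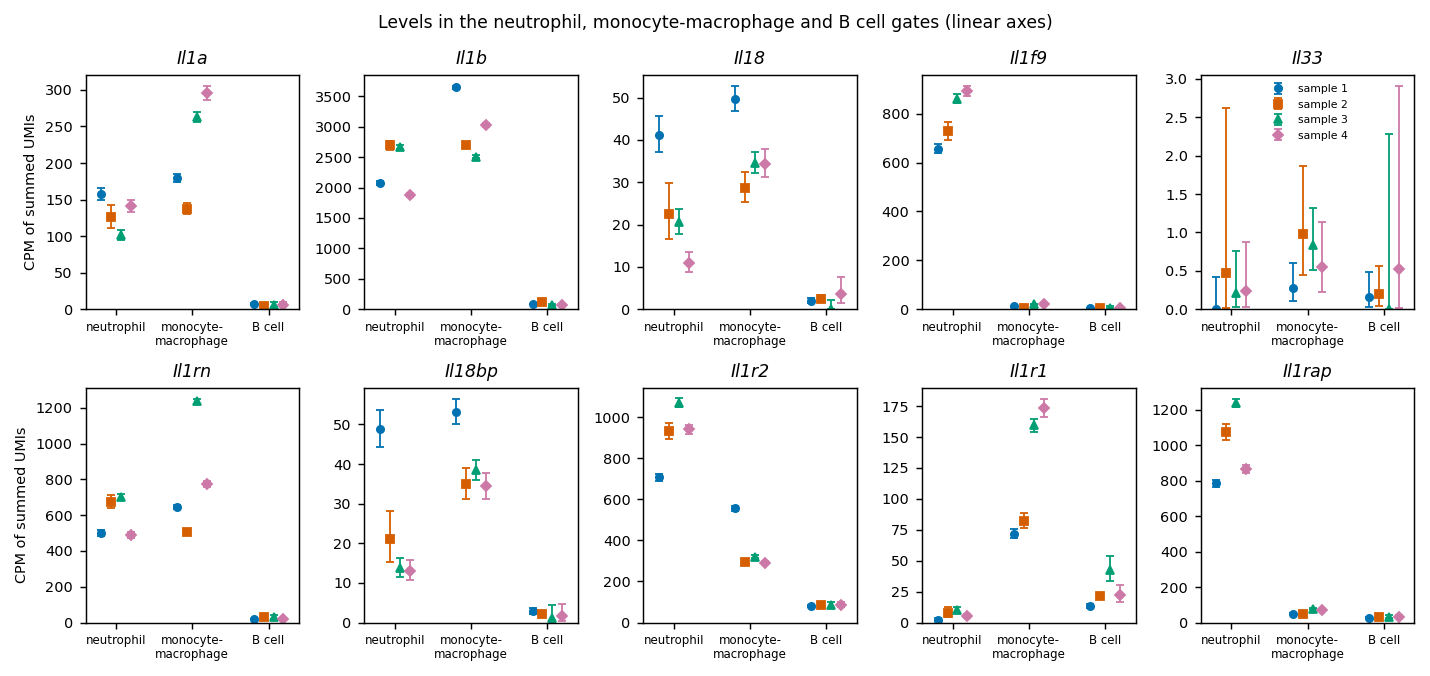
Levels (CPM of summed UMIs, linear axes) in the neutrophil, monocyte-macrophage and B cell gates, with a point for each sample and exact 95% Poisson intervals. Il1f9, Il1r2 and Il1rap lay higher in neutrophils in all 4 samples, and Il1r1 lay higher in monocyte-macrophage cells.

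The antagonist transcripts differed in their cells. Il1rn (chromosome 2 from 24336853 to 24351494) was carried by the same classes as Il1b, at 644, 504, 1235 and 774 CPM in monocyte-macrophage cells. In neutrophils its level was 499.7, 675, 701 and 490.1 CPM. Neutrophils were the higher class in sample 2 and monocyte-macrophage cells in the other samples, with intervals apart in each. Migratory DCs stood at 232 to 266 CPM, epithelial cells at 94.6 to 217 CPM and conventional DCs at 58.9 to 167 CPM. B cells were at 19.3 to 33.6 CPM.

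The number of Il1rn UMIs per Il1b UMI was compared between classes, since its own size depends on how well each transcript is captured. In neutrophils it was 0.241, 0.251, 0.262 and 0.260 in samples 1 to 4, a narrow range. In monocyte-macrophage cells it was 0.176, 0.186, 0.492 and 0.256. The neutrophil ratio divided by the monocyte-macrophage ratio was 1.37, 1.35, 0.533 and 1.02, so the order was not shared by all samples. Conventional DCs were below both of these classes in every sample, at 0.0902, 0.0467, 0.150 and 0.197. Epithelial cells were the only class of over 20 cells in every sample in which Il1rn UMIs outnumbered Il1b UMIs in all 4, with 4.08, 3.16, 5.88 and 13.1 per Il1b UMI. Their Il1b level, 16.5 to 32.7 CPM, was below that of B cells.

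Il1rn and Il1b were found in the same cells. In neutrophils, 77.3% to 81.5% of cells with an Il1b UMI also had an Il1rn UMI, against 54.4% to 66.7% of cells without Il1b. In monocyte-macrophage cells the shares were 61.2% to 86.8% and 39.5% to 65.5%. Cells with an Il1b UMI were also the deeper ones in all 4 samples (medians of 6029 against 4648.5 UMIs in neutrophils of sample 1), and the part of depth in this difference was not tested.

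Il18bp, the gene for the soluble IL-18 binding protein, was highest in monocyte-macrophage cells among classes with at least 50 cells in all 4 samples, at 53.3, 34.9, 38.4 and 34.3 CPM. In neutrophils it was at 48.8, 21.1, 13.9 and 13.1 CPM, with the interval of the ratio apart from 1 in samples 2, 3 and 4. Migratory DCs were at 38.5, 9.60, 29.3 and 23.2 CPM, above neutrophils in samples 3 and 4, and endothelial cells at 13.1 to 31.0 CPM from 3 to 12 UMIs. Epithelial cells, where Il18 was highest, had only 0.0446 to 0.0902 Il18bp UMIs per Il18 UMI. Monocyte-macrophage cells had 0.998 to 1.22.

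Il1r2 (chromosome 1 from 40074079 to 40125231), the decoy receptor gene, was carried most by conventional DCs and neutrophils. The DC level was the higher in samples 1 and 4 and the neutrophil level in samples 2 and 3, with overlapping intervals in sample 2. In neutrophils its level was 706, 931, 1070.3 and 941 CPM. In conventional DCs it was 1004, 889, 791 and 1277 CPM, from 136, 103, 82 and 47 cells. In monocyte-macrophage cells it was 555, 296, 319.8 and 292 CPM. The neutrophil level was 1.27-fold the monocyte-macrophage level in sample 1 and 3.15- to 3.35-fold in the other samples. Plasmacytoid DCs stood at 122 to 423 CPM from 18 to 45 cells. At 1000 UMIs, 49.8% to 62.4% of neutrophils and 45.1% to 56.9% of conventional DCs had an Il1r2 UMI. In B cells Il1r2 was at 80.4 to 86.2 CPM. The neutrophil transcripts S100a8 and S100a9 reached 0.264% to 0.954% of their neutrophil level in B cells, and the same share of the neutrophil Il1r2 level is 1.87 to 10.2 CPM. For Il1b, that share of the higher of the neutrophil and monocyte-macrophage levels is 8.53 to 25.5 CPM. The Il1b level of B cells, 71.2 to 117 CPM, lay above it in every sample. The tracers are neutrophil transcripts while both classes carry Il1b, so this value is not an upper limit for free Il1b RNA. The source of the B cell level was not tested.

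Il1r1 (chromosome 1 from 40225080 to 40317257), the signalling receptor gene, was low in neutrophils and, apart from the few ILC3 cells, highest in stromal cells. Fibroblasts stood at 340.2, 385, 443 and 517 CPM. Endothelial cells were at 255, 944, 134 and 234 CPM, from 16 to 77 cells. In monocyte-macrophage cells the level was 71.99, 82.3, 159.7 and 173 CPM and in neutrophils 2.40, 7.98, 9.999 and 4.98 CPM. The monocyte-macrophage level was therefore 30.0045-, 10.3-, 15.97- and 34.8-fold the neutrophil level. B cells, at 13.3 to 42.7 CPM, also lay above neutrophils in every sample. Because monocyte-macrophage cells were many, they still held 16.5% to 42.2% of all Il1r1 UMIs, against 7.88% to 15.7% in fibroblasts and 7.86% to 15.8% in T cells.

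Among T cells, Il1r1 was uneven. Cells with a UMI of Trdc, a γδ T cell receptor gene, and none of Foxp3, Cd4 or Cd8b1 stood at 236, 53.9, 317 and 359.6 CPM, from 60, 233, 34 and 79 cells. T cells with Foxp3, the regulatory T cell factor, stood at 106, 96.4, 84.0 and 119 CPM. Cd8+ T cells were at 27.2, 17.7, 15.04 and 7.74 CPM. Foxp3+ T cells were 3.91-, 5.43-, 5.59- and 15.4-fold the Cd8+ level, with every exact interval above 1. The Cd8+ level was the lowest of the T cell subsets. T cells with Cd4 and without Foxp3 stood at 51.6 to 82.4 CPM. Those with a UMI of none of the splitting genes stood at 63.9 to 122 CPM, a range that overlaps the Foxp3+ levels. Foxp3+ T cells also carried the decoy: Il1r2 was at 211, 145, 206 and 213 CPM in them and at 10.7, 29.9, 49.6 and 34.5 CPM in Cd8+ T cells. In T cells with Cd4 and without Foxp3 it ranged from 43.2 to 221 CPM, so its highest value there lay above every Foxp3+ level. In Trdc+ T cells Il1r2 was at 25.6, 21.6, 12.8 and 136 CPM. The few ILC3 cells (7, 10, 2 and 1) stood at 479, 1299.5, 1270.5 and 2728 CPM of Il1r1, from 22 to 77 UMIs.

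The number of Il1r2 UMIs per Il1r1 UMI therefore ranged widely. It was 294, 117, 107 and 189 in neutrophils and 161, 67.5, 67.8 and 86.3 in conventional DCs. Monocyte-macrophage cells had 7.71, 3.60, 2.003 and 1.68 and Foxp3+ T cells 1.98, 1.51, 2.46 and 1.79. Fibroblasts had 0.134, 0.0891, 0.0775 and 0.0628, and Trdc+ T cells 0.108, 0.4, 0.0405 and 0.378. In all 4 samples, then, neutrophils and conventional DCs had the highest of these ratios. Fibroblasts, endothelial cells and Trdc+ T cells had fewer Il1r2 than Il1r1 UMIs, with a ratio of 0 to 0.147 in endothelial cells. The few ILC3 cells had 0, 0.143, 0 and 0. T cells with a UMI of none of the splitting genes had 0.306, 0.381, 0.627 and 0.307. Their ratio lay below that of Trdc+ T cells in samples 2 and 4. The size of the neutrophil ratio depended on the gate: its median over samples was 152.8, and 16.78 when unsupervised clusters that also take in mixed cells replaced the gates. It was 193.2 with the mostly mixed clusters left out.

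**Figure D3:**
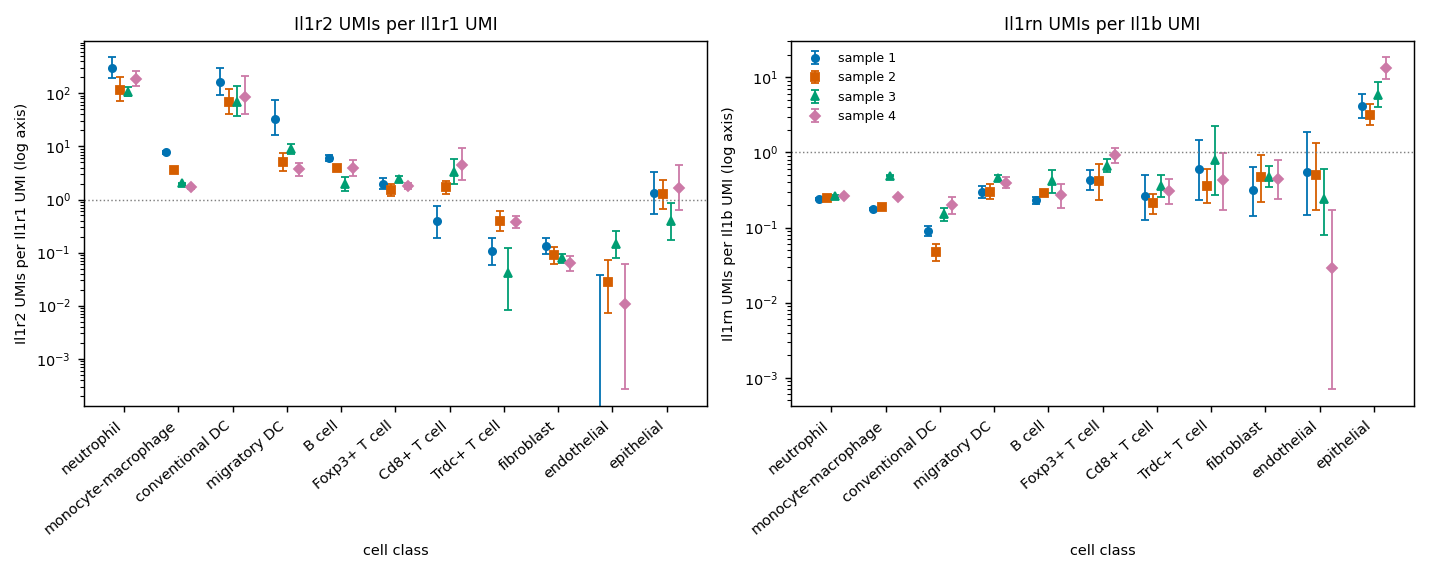
UMIs of Il1r2 per UMI of Il1r1 (left) and of Il1rn per UMI of Il1b (right) by cell class on log axes, with a point per sample and exact 95% intervals. The Il1r2 ratio is above 100 in neutrophils and below 1 in fibroblasts, endothelial cells and Trdc+ T cells in all 4 samples, and the ratio of 0 in endothelial cells of sample 1 appears as an interval only.

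Il1rap (chromosome 16 from 26581704 to 26730117), the accessory chain shared by several receptors of the family, was highest in neutrophils, at 784, 1073, 1239 and 865 CPM. Monocyte-macrophage cells stood at 49.0, 46.6, 78.8 and 70.7 CPM. The neutrophil level was 16.01-, 23.0-, 15.7- and 12.2-fold this. Fibroblasts stood at 174, 53.6, 134 and 83.4 CPM and conventional DCs at 33.5, 75.6, 72.1 and 54.98 CPM. Neutrophils thus carried transcripts of the accessory chain and the decoy beside a low level of the signalling receptor. In neutrophils with an Il1r2 UMI, 82.1% to 91.2% also had an Il1rap UMI, against 64.3% to 81.7% of the others. Those with an Il1r2 UMI were also the deeper ones in all 4 samples (medians of 6085 against 4035 UMIs in sample 1). The part of depth in this difference was not tested. Counted over isoforms, Il1rap UMIs do not separate the membrane from the soluble form of this protein.

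Over the 10 members, 3 were higher in neutrophils than in monocyte-macrophage cells in all 4 samples with intervals apart (Il1f9, Il1r2 and Il1rap), 1 was lower (Il1r1) and 6 did neither. Of 8866 genes with at least 50 UMIs over the 2 classes in every sample, 14.5% were higher by this rule and 54.6% lower. Among the members only Il33 was under that count. The median log2 ratio over the other 9 was -0.51, beside -0.88 over 8718 genes detected in both classes of every sample. Most genes thus had a lower level in neutrophils. S100a8 alone stood at 54270 to 84329.5 CPM there, and its part in the lower levels was not tested. With clusters in place of gates, 6 members were lower in neutrophils (Il1a, Il1b, Il18, Il1rn, Il18bp and Il1r1), and with the mostly mixed clusters left out only Il1r1 was.

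Within the monocyte-macrophage gate, cells were split into a monocyte subset (by markers that include Ly6c2, Chil3, Plac8, Vcan and Hp) and a macrophage subset (C1qa, C1qc, Mrc1, Cd163, Selenop, Folr2, Trem2, Cx3cr1). Cells between them are shown only in the plot across the gate. The monocyte subset held 1444, 481, 1904 and 860 cells and the macrophage subset 337, 771, 537 and 731. Of the 10 members, 7 were higher in the monocyte subset in all 4 samples with intervals apart, 1 was lower and 2 did neither. Of 8021 genes with at least 50 UMIs over both subsets in every sample, 11.4% were higher by this rule and 17.2% lower. Il33 and Il1f9 were under that count. Il1f9 was 1 of the 7, at low levels that are not read as expression. The median log2 ratio of the other 8 members was 0.81, beside -0.12 over 8019 genes.

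The ligands Il1a, Il1b, Il18 and Il1f9 were among the 7. Il1b was at 3981, 3599, 2729.7 and 3767 CPM in the monocyte subset, 1.39- to 1.65-fold the macrophage level. Il1a was 1.48- to 2.72-fold higher in the monocyte subset and Il18 1.68- to 3.56-fold. Il1f9 stood at 16.1, 9.33, 29.8 and 38.3 CPM in the monocyte subset and at 3.22 to 6.69 CPM in the macrophage subset. The neutrophil tracer S100a8 moved with it, at 1124, 365, 1445 and 3165 CPM in the monocyte subset and 110 to 188 CPM in the macrophage subset, and its part in the Il1f9 difference was not tested.

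Il1rn, at 669, 801, 1438 and 917 CPM in the monocyte subset, was 1.47- to 2.72-fold its macrophage level. Its UMIs per Il1b UMI were 0.168, 0.223, 0.527 and 0.244 in the monocyte subset and 0.182, 0.135, 0.356 and 0.262 in the macrophage subset, so the monocyte ratio was the higher in samples 2 and 3 and the lower in samples 1 and 4. The receptor chains Il1r1 and Il1rap were 1.16- to 1.76-fold and 2.25- to 3.02-fold higher in the monocyte subset. S100a8 moved with Il1rap as well, which is a neutrophil transcript here, and its part was not tested.

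Il18bp was the member that went the other way. It stood at 42.7, 12.7, 12.2 and 13.4 CPM in the monocyte subset and at 95.9, 49.5, 103 and 63.8 CPM in the macrophage subset, 2.25-, 3.91-, 8.39- and 4.77-fold higher. With Il18 lower in the same subset, Il18bp UMIs per Il18 UMI were 5.35, 2.26, 4.09 and 2.44 in macrophages and 0.670, 0.297, 0.290 and 0.283 in monocytes. The macrophage ratio was 7.60- to 14.1-fold the monocyte ratio in the 4 samples.

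Il1r2 did not share an order between the subsets. It was 3.54- and 3.85-fold higher in the monocyte subset in samples 3 and 4, while in samples 1 and 2 the ratio of monocyte to macrophage level was 0.951 (0.901 to 1.003) and 1.07 (0.976 to 1.17). In the macrophage subset it stood at 545, 252, 113 and 117 CPM. Il33 had at most 1.64 CPM in either subset and its order was not shared.

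**Figure D4:**
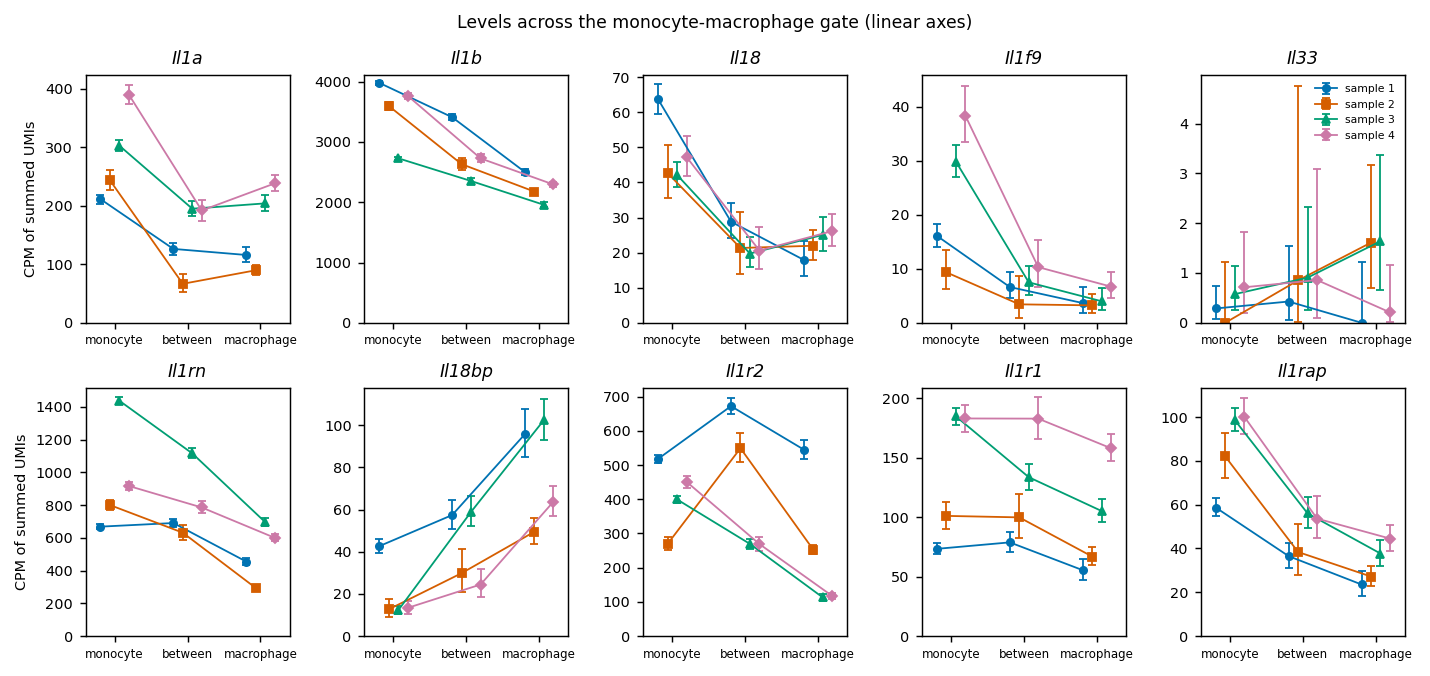
Levels (CPM of summed UMIs, linear axes) in the monocyte subset, the cells between the subsets and the macrophage subset, with a line per sample and exact 95% Poisson intervals. Il18bp rises toward the macrophage subset in all 4 samples, while Il1a, Il1b, Il18, Il1f9, Il1rn, Il1r1 and Il1rap are higher in the monocyte subset than in the macrophage subset.

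The other genes of the pathway were taken as a list of 23: the cytokines Il1f5, Il1f6, Il1f8 and Il1f10, the receptors Il18r1, Il18rap, Il1rl1, Il1rl2 and Sigirr, 7 genes of cytokine processing and 7 of signalling. Between neutrophils and monocyte-macrophage cells, 6 of the 23 were higher in neutrophils in all 4 samples with intervals apart, 6 were lower and 11 did neither, beside 14.5% higher and 54.6% lower over all genes. Only 16 of the 23 reached 50 UMIs in every sample, and Il1f6 and Il1rl2 did not. Higher were Il1f6 (6.57 to 11.04 CPM against 0.438 to 3.69 CPM), the IL-18 receptor chains Il18r1 and Il18rap, the inflammatory caspase Casp4, and Irak2 and Irak3. Il18rap stood at 342 to 445 CPM in neutrophils and 16.2 to 38.4 CPM in monocyte-macrophage cells. Irak3, an inhibitory member of its kinase family, stood at 566 to 719 CPM in neutrophils and 113 to 236 CPM in monocyte-macrophage cells. Lower were the receptor Il1rl2, the inflammasome sensors Nlrc4 and Aim2, the adaptor Pycard, and Irak1 and Traf6. Pycard was at 24.4 to 54.6 CPM in neutrophils and 107 to 218 CPM in monocyte-macrophage cells. Nlrp3, the sensor upstream of IL-1β processing, did neither, with 579, 1235, 804 and 702 CPM in neutrophils and 675, 641, 750.1 and 973 CPM in monocyte-macrophage cells.

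Between the subsets, 4 of the 23 were higher in the monocyte subset (Pycard, Il18rap, Irak2 and Irak3), 2 were lower (Irak1 and Tollip) and 17 did neither, beside 11.4% higher and 17.2% lower over all genes. The median log2 ratio of the 15 list genes with enough UMIs was 0.0017, beside -0.12 over all genes. The receptors for IL-18 were highest elsewhere: Il18r1 and Il18rap peaked in the NK and ILC1 gate in all 4 samples, at 443 to 708 CPM and 566 to 1058 CPM. Il1f5, Il1f8 and Il1f10 had 3 to 8 UMIs each in all kept cells. The median log2 ratio of the 16 list genes with enough UMIs was -0.13 between neutrophils and monocyte-macrophage cells, beside -0.88 over all genes.

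For 6 members the class with the highest level, among those with at least 50 cells in a sample, was the same in all 4 samples: monocyte-macrophage cells for Il1a and Il18bp, neutrophils for Il1f9 and Il1rap, and fibroblasts for Il33 and Il1r1. For Il1a in sample 2 the interval overlapped that of neutrophils. In Il1b and Il1rn the leading place passed between monocyte-macrophage cells and neutrophils, in Il18 between monocyte-macrophage and epithelial cells, the latter passing 50 cells in samples 2 and 4, and in Il1r2 between conventional DCs and neutrophils.

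**Figure D5:**
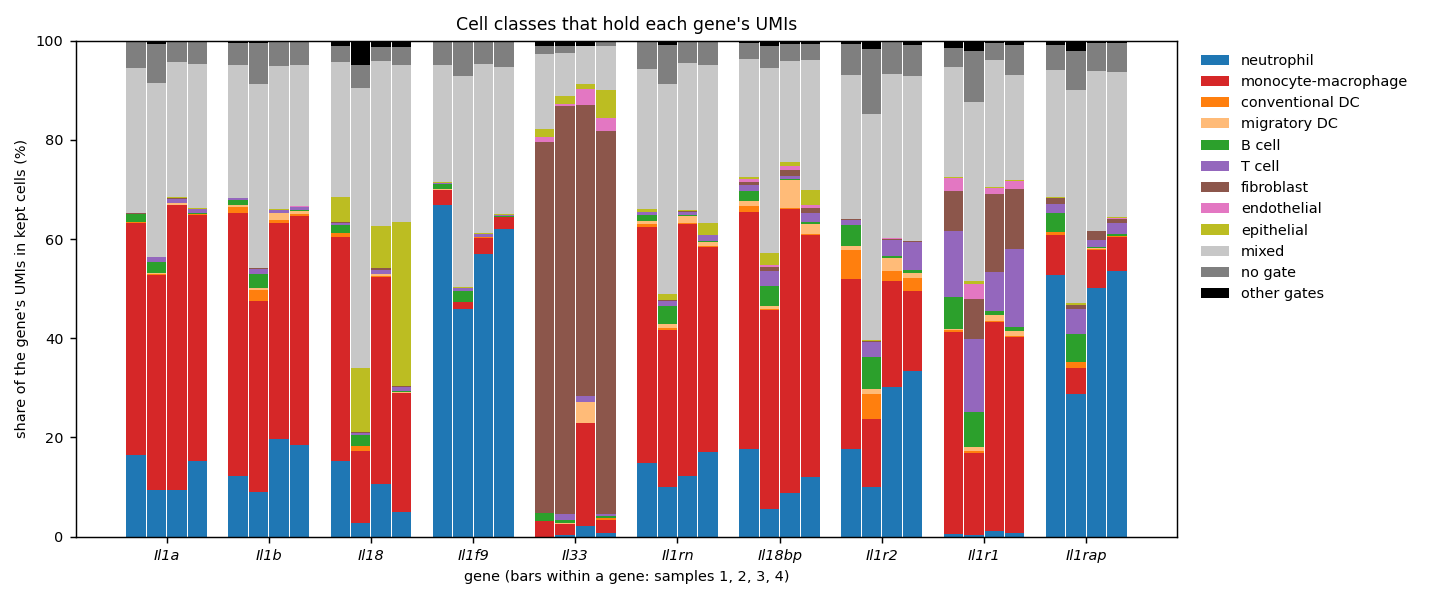
Share of each gene's UMIs (% of its UMIs in kept cells) held by each cell class, with a stacked bar for each of samples 1 to 4. Mixed cells hold 7.61% to 56.4% of a gene's UMIs, and neutrophils hold the largest named share of Il1f9 and Il1rap in every sample.

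The genes whose pattern over classes was most like a member's were listed as a description, by the mean of the 4 within-sample Pearson r of log2(CPM + 1). Only 6 classes held at least 50 cells in every sample, so many of the 5076 genes compared reach a high r, and the classes share their libraries. Il1b was most like Il1rn (mean r 0.991), Pla2g7 and Pirb, and Il1rn was most like Il1b, Nlrp3 and Cxcl3. Il1a was most like Il1rn, Cxcl3 and Il1b. Il1f9 was most like S100a8 (0.991), Mirt2 and Msra, and Il33 was most like Myl9, Prickle2 and Nhs. Il18 was most like Slc15a3, Atp6v1a and Pstpip2, and Il18bp was most like Creg1, Ifi204 and Atp6v0c. Il1r2 was most like Synj1, Cass4 and Nfam1 and Il1r1 most like Dst, Plcl1 and Iigp1, the latter with the lowest likeness (0.932 for Dst). Over 17 classes and subsets with at least 20 cells in every sample, the nearest genes were Pirb for Il1b (0.982), Cd14 for Il1a (0.935) and again S100a8 for Il1f9 (0.954). The likeness of Il1b and Il1rn was 0.893 there, and the highest value was 0.853 for Il18 and 0.792 for Il1r1.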

How the data were processed

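Single-cell RNA-seq libraries of the 4 samples were used. For each cell the authors deposited raw UMI counts of every gene, not normalized. The submitters' processing notes name Cell Ranger 5.0.0, STAR, Seurat and mm10, while the matrix headers give Cell Ranger 7.0.1. The labels put no sample in a group, so no samples were averaged and no genotypes compared. The mice of a sample were mixed, and intervals cover counting error only. The paper's methods give an age of 8 weeks and the labels 10.

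Cells with at least 200 genes and under 20% mitochondrial UMIs were kept, and those with the highest Scrublet scores (scanpy 1.11.5) were removed at 0.8% of cells per 1000 cells. A cell entered a class with at least 3 markers and 0.3 of the list present, the highest share of any list, and no unrelated list above 0.5 of that share. Subsets differed by at least 0.2 between the shares of both lists. One subset marker is not reported here. T cells were split by UMIs of Foxp3, Trdc, Cd4, Cd8a and Cd8b1. Gating, ratios and likeness were tested on simulated data, drawn from the summed profiles of the gated cells with no doublets or free RNA added. The handling of mixed cells was therefore not tested. No gate list holds a member. The members and lists were chosen with earlier results of these data known. Named genes were the members, the pathway list by counts, and for 9 members (not Il1rap) the 3 genes most alike among those at 50 CPM or more in some class of every sample, without gate markers and mitochondrial, ribosomal and sex-linked marker genes. A direction was counted where intervals were apart in all 4 samples. For shares, cells under 1000 UMIs were left out and the expected share after drawing 1000 UMIs was computed. Pairs of samples shared 23 to 49 cell barcodes (at most 0.423% of the smaller sample). Samples held 72509408 to 135516016 UMIs and kept cells a median of 5633.5 to 7084. Gene positions are from GENCODE on GRCm38. Alternatives changed doublet removal, filters, gate strictness, the limit on mixed cells, scaling and thinning, or replaced gates by Leiden clusters. Other tools were numpy 2.4.6, scipy 1.17.1, pandas 2.3.3, scikit-learn 1.9.0, igraph 0.11.9, matplotlib 3.10.9 and Python 3.11.15.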

Additional observations from a re-analysis of the deposited data

How the results depend on the processing

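No paired analysis was possible because the labels put no sample in a group. No median over the 4 samples changed sign where it was called, but within samples the neutrophil level of Il1b in sample 3 and of Il1rn in sample 2, higher by gates, was lower with clusters. Among alternative values for the main results 116 stayed within their limits and 26 moved. The counts of members higher in neutrophils (3), higher and lower in the monocyte subset (7 and 1) and of members with 1 leading class (6) stayed within 1.5 times. The limit on mixed cells and the use of clusters moved the most. Members lower in neutrophils in all 4 samples rose from 1 to 2 with unrelated lists held to 0.33, to 4 with the mean of each cell's own CPM (an order alone, with no interval) and to 6 with clusters, among them Il1a, Il1b, Il1rn, Il18 and Il18bp. With lists held to 0.33, the median ratio of Il1r2 to Il1r1 in neutrophils went from 152.8 to 293.0 and the median share of a gene's UMIs in monocyte-macrophage cells from 44.82% to 23.72% for Il1b, from 48.12% to 25.87% for Il1a and from 44.46% to 23.13% for Il1rn, while the fibroblast share of Il33 went from 76.1% to 42.56%. With clusters the Il1r2 to Il1r1 ratio in neutrophils fell to 16.78. The cluster shares were 51.12% (Il1b), 60.03% (Il1a) and 53.96% (Il1rn) in monocyte-macrophage cells, also with mostly mixed clusters left out, an alternative added after seeing the data. In neutrophils they were 30.78% for Il1b (15.37% by gate), 89.96% for Il1f9 (59.58%), 77.04% for Il1rap (51.47%) and 40.04% for Il1r2 (23.92%). With no doublet removal the Il1a share was 40.79%. Without thinning, shares of cells with a UMI rose from 71.55% to 90.93% (Il1b, monocyte-macrophage), 76.83% to 93.71% (Il1b, neutrophil), 54.81% to 88.07% (Il1rap), 57.96% to 91.86% (Il1r2), 45.04% to 78.15% (Il1f9, these 3 in neutrophils) and 38.74% to 76.69% (Il1rn, monocyte-macrophage). The cause of these moves was not tested. The likeness over 17 classes and subsets was also added after seeing the data. The ILC3 gate held at most 14 cells in a sample under any setting.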

Other observations

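Some levels differed between samples by more than their counting intervals, which the labels put in no group, and they are given as values without explanation. Il1r1 in monocyte-macrophage cells was at 71.99, 82.3, 159.7 and 173 CPM in samples 1 to 4, and Il1a there at 179, 137, 263 and 296 CPM. Il1r2 in the macrophage subset was at 545, 252, 113 and 117 CPM. Il1rn in monocyte-macrophage cells stood highest in sample 3, at 1235 CPM against 504 to 774 CPM in the others.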
